A study of Mus musculus with 18 samples.

Results

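Wildtype immortalized mouse embryonic fibroblasts were compared before and during shared culture with differentiating human epidermal keratinocytes. Of the 18 arrays in the study, 6 were used. They are the 5 wildtype arrays of days 2, 4 and 6 (replicates 1 and 2 of days 2 and 4, and replicate 1 of day 6) and the single wildtype array of day 0. The 3 remaining wildtype arrays of day 6 belong to another processing set and were left out. The cells carried intact JNK1 and JNK2, the stress-activated kinases that the study deleted in its other line, called KO here (jnk1-/-jnk2-/-). Both were 3T3-immortalized fibroblasts from E10.0 embryos of BL6/129/Sv background, with 1 line per genotype, so arrays of a group are culture inserts of 1 line and not separate embryos. All groups were grown on inserts in FAD medium, which holds insulin, hydrocortisone, cholera toxin, adenine, human EGF and a low level of calcium. At day 0 the inserts had met no keratinocytes. At days 2, 4 and 6 they had shared medium with primary normal human epidermal keratinocytes (NHEK), and fresh fibroblast inserts were supplied at each change, so that a later day is a later stage of the keratinocytes and each insert shared only its last interval. Arrays held RNA of 2 pooled inserts, except that replicate 2 of days 2 and 4 held 1. Wildtype fibroblasts kept without keratinocytes for an equal time were not analysed here, so co-culture and time on the insert cannot be told apart.

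Dermal fibroblasts and keratinocytes signal to each other across the skin's basement membrane. Keratinocytes release interleukin-1 and other cytokines, which fibroblasts answer through NF-kB and AP-1, and fibroblasts return growth factors such as the FGF7 family that drive keratinocyte growth. A fibroblast also builds collagen matrix, recruits leukocytes through chemokines and, when it senses interferon, switches on antiviral and antigen-presentation genes through STAT and IRF factors.

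The arrays carried the markers of fibroblasts. Of 13 fibroblast markers, 10 were detected on all 6 arrays, among them Vim, Col1a1, Col1a2, Col3a1, Pdgfra, Dcn and Sparc, and only Postn was detected on none. Of the 10 keratinocyte markers on the array, 7 were detected on none of the 6, including Krt5, Krt14, Krt1 and Lor. Of the 2 that were measured, Ivl, a cornified envelope protein, was called higher by 0.73 ± 0.24 (log2 difference ± standard error), while Krt10, a keratin of the upper epidermis, was detected on all 6 arrays at 9.20 at day 0 and was not called, at -0.28 ± 0.15. Cdh5 and Pecam1 of endothelium, Epcam of simple epithelium and Lyz2 of macrophages were also detected on no array. Other members of these lists were detected, with Krt19 of simple epithelium and Cd14 of macrophages on all 6 arrays. At day 0, 3 of 6 simple epithelium, 3 of 5 macrophage and 1 of 6 endothelium markers on the array were detected. The summed log2 signal of the fibroblast list was 109.4 at day 0 and 118.1 to 121.7 in co-culture, and that of the keratinocyte list 50.3 and 50.8 to 51.9.

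Mean bead intensity was between 392 and 482 per array, and 37.3% to 40.0% of 45121 probes were detected (detection p under 0.01). Log2 signals of the 5 co-culture arrays correlated at 0.989 to 0.992 with each other and at 0.963 to 0.967 with day 0. On the leading principal component, with 58.9% of the variance, day 0 was at -59.39 and the others were between 9.78 and 13.38. Mapk9, the gene of JNK2, lay between 9.74 and 10.16 on the 6 arrays. On the 6 KO arrays of that set it lay between 4.60 and 5.30. Its response was -0.23 ± 0.19, not past the threshold (limma, adjusted p = 0.417). Mapk8, the gene of JNK1, lay between 5.17 and 6.01 in wildtype and between 5.40 and 5.99 in KO, so its probe was not lower in the line labelled as lacking JNK1. Where that probe lies with respect to the deletion was not analysed here, and it does not check the label. The wildtype response of Mapk8 was 0.04 ± 0.29.

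The main question was which transcripts changed in the fibroblasts once keratinocytes were present. Values are normalized log2 signals, and a difference is the equal mean of days 2, 4 and 6 minus day 0, with its standard error. Tests are limma's, with Benjamini-Hochberg adjustment over 13599 features, and a gene is said to rise or fall where the adjusted p is under 0.05. With n = 5 against n = 1, the day 0 array was assumed to vary as the groups of 2 arrays do, and every difference below rests on that one array. An exact permutation test of a single gene could not go below p = 0.167 (1-sided) here, or 0.333 with that value doubled for 2 sides. Where no array of the dimmer side was detected, or none on 1 of its days, the change is given as a lower bound ("at least"). These are bulk samples, in which fewer cells of a type and less RNA per cell cannot be told apart.

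Co-culture changed 3000 features, or 22.1% of those tested, with 1490 higher (11%) and 1510 lower (11.1%). The large changes were mostly rises. At least 2-fold, 572 were higher and 259 lower, and at least 8-fold, 56 were higher and 7 lower. The median over all features was -0.04. Of the features called higher, 177 were not detected at day 0, and of those called lower, 80 were detected on none of the 5 co-culture arrays. With all 18 arrays and the processing set as a block, 1898 features were called. With arrays scaled to a common median in place of quantile normalization, 1383 were higher and 999 lower. For co-culture against day 0, the counts of each list below are to be read against the shares of 11% higher and 11.1% lower over all features.

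**Figure D1:**
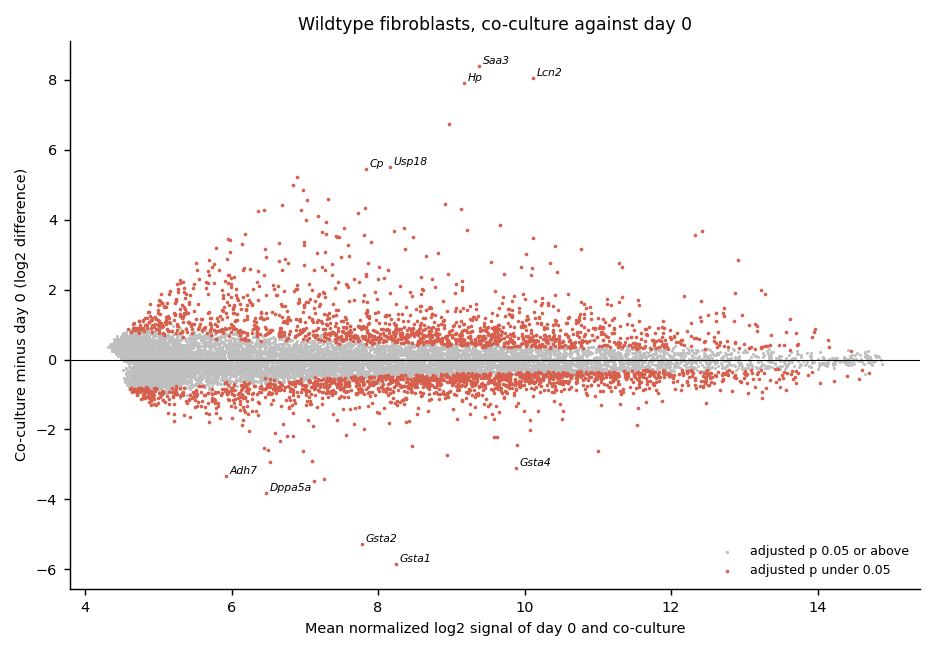
Difference between co-culture and day 0 (vertical axis, log2) against mean normalized log2 signal (horizontal axis) for 13599 features, 1 point each. Red points have an adjusted p under 0.05, and the 5 largest named rises and falls are labelled. Saa3, Lcn2 and Hp stand above the rest near 8, and Gsta1 and Gsta2 below it under -5.

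Genes of the acute-phase response, secreted proteins that bind iron, lipid or microbes, held the 3 largest rises. Saa3, serum amyloid A3, read 5.18 at day 0, 13.66 and 12.67 at day 2, 13.23 and 13.05 at day 4 and 14.43 at day 6. Its deposited bead intensity was 151 at day 0 and ran from 6464 to 19085 in co-culture. Lcn2, the iron-siderophore carrier lipocalin 2, read 6.08 at day 0, then 14.34 and 13.60, 13.81 and 13.68, and 14.71. Both genes were thus dim before co-culture and far brighter on every later array. Hp, haptoglobin, which binds free haemoglobin, went from 5.21 to 12.97 and 12.08, 12.96 and 12.89, and 13.94. The differences were 8.40 ± 0.26, 8.06 ± 0.20 and 7.92 ± 0.24 (adjusted p = 4.77e-12, 1.11e-12 and 4.02e-12). In each of the 3 the day 6 array was the highest and replicate 2 of day 2, a single insert, the lowest of the 5.

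Ceruloplasmin (Cp), the copper-carrying ferroxidase, rose from 5.10 to values between 9.92 and 11.21, a difference of 5.46 ± 0.20 (adjusted p = 2.21e-11). Camp, the gene of the antimicrobial peptide cathelicidin, was not detected at day 0 and was at least 26.3-fold higher, with co-culture values from 8.39 to 9.91. Of 13 measured members of the acute-phase and antimicrobial list (17 on the array), 9 rose and none fell, and the median difference was 2.21. The 4 that did not pass were Saa1, Saa2, Orm1 and Orm2, named after their values were seen. Saa1 was at 0.64 ± 0.37 and Saa2 at 0.03 ± 0.31, so among the serum amyloid genes measured only Saa3 was called. Of the complement list, 3 of 7 measured genes rose. Cd55, which protects a cell from complement, was at 1.25 ± 0.25, the protease C1s1 at least 1.60-fold higher and C4b at least 1.33-fold.

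**Figure D2:**
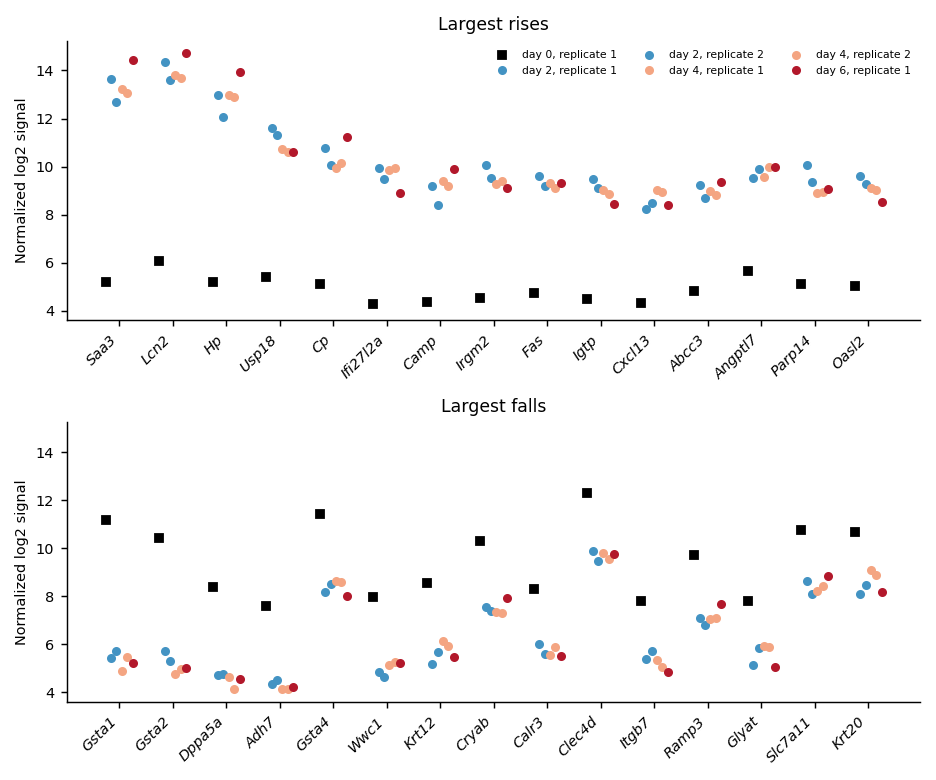
Normalized log2 signal (vertical axis) of the 15 largest named rises (upper panel) and falls (lower panel) on each of the 6 wildtype arrays. The black square is the single day 0 array and each circle 1 co-culture array, coloured by day. In all 30 genes the day 0 value lies outside the 5 co-culture values, as the naming rule required.

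Interferon-stimulated genes formed the list with the highest median. Usp18, the protease that removes ISG15 from proteins and dampens interferon signalling, read 5.41 at day 0, 11.62 and 11.31 at day 2, 10.72 and 10.61 at day 4 and 10.61 at day 6. The rise was 5.50 ± 0.26 (adjusted p = 6.06e-10). Igtp and Irgm2, immunity-related GTPases that act on intracellular pathogens, were undetected at day 0 and at least 19.4-fold and 27.8-fold higher. Igtp went from 4.48 to values between 8.44 and 9.49, and Irgm2 from 4.55 to values between 9.10 and 10.08. Every co-culture array was thus above day 0 by several log2 units, an order without overlap that 27.6% of all features had. Ifi27l2a, an interferon-induced membrane protein gene, was at least 29.7-fold higher. Oasl2, an OAS-family antiviral gene, rose by 3.98 ± 0.22, Parp14, an ADP-ribosyltransferase, by 4.11 ± 0.22, and Gbp2, a guanylate-binding GTPase, by 3.77 ± 0.13.

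Of 17 measured interferon-stimulated genes (23 on the array), 16 rose, against 11% of all features, with a median of 3.08, or 3.03 with undetected genes at their bound. Oasl1 was the exception, at -0.64 ± 0.26 (adjusted p = 0.0948), and is named after its value was seen. The antigen-presentation list changed with smaller sizes. H2-T23, a nonclassical MHC class I gene, read 5.91 at day 0 and 8.17 to 8.95 in co-culture, a rise of 2.64 ± 0.16 (adjusted p = 1.05e-08). The immunoproteasome subunit gene Psmb8 was at least 4.12-fold higher, and the class I gene H2-Q7 at least 3.25-fold. Tap2, a chain of the peptide transporter that loads class I molecules, rose by 1.77 ± 0.20. In all, 11 of 12 measured members rose and none fell, with a median of 1.46. Class I genes are alike in sequence, so a probe of one may also bind transcripts of another.

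Interferon acts on promoters through the interferon-stimulated response element, approximated here by the letters GAAA, any 2 bases and GAAA again. The motif was searched on both strands in the 250 bases before each gene's start (RefSeq, GRCm38.p6), with its letters chosen when the results were known. It occurred in 3.46% of 27025 genes and in 8 of the 14 called interferon-stimulated genes with a promoter in the table. Stretches of 100 bases that end within 30 bases of the start are shown for 3 of the 8, 5′ to 3′ on the gene's strand, with every match in capitals. Isg15, a ubiquitin-like modifier that is added to proteins and rose by 3.49 ± 0.19, lies at chr4:156200842-156200941 (minus strand) and holds 3 overlapping matches. Igtp lies at chr11:58199456-58199555 (plus strand) with 1 match, and Gbp2 at chr3:142620559-142620658 (plus strand) with 1 match on the opposite strand, seen as its reverse complement.
Isg15: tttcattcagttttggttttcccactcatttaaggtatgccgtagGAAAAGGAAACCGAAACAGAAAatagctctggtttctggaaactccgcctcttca
Igtp: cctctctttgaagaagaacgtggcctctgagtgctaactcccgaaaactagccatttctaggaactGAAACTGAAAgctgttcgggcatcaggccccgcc
Gbp2: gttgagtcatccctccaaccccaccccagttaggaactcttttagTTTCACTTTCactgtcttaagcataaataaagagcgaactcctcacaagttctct
A match describes the letters and shows no binding. The 3 were chosen after their values were seen.

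Chemokines, which draw leukocytes into tissue, rose broadly. Cxcl13, a B-cell attractant, was undetected at day 0 at 4.31 and read 8.23 and 8.50 at day 2, 9.04 and 8.95 at day 4 and 8.41 at day 6, at least 15.8-fold higher. Cxcl1, a neutrophil attractant, was already bright at 10.55 and reached 14.15 and 13.95, 13.85 and 13.86, and 14.38. Its rise of 3.55 ± 0.11 had an adjusted p of 4.02e-12. Cxcl2, which acts on the same receptor, went from an undetected 4.24 to between 6.77 and 8.51 and was at least 8.35-fold higher. The monocyte attractant Ccl2 rose by 3.26 ± 0.21, from 8.79 to between 11.42 and 12.50. Of 19 measured chemokines (27 on the array) 14 rose and none fell, with a median of 1.65, or 1.63 with undetected genes at their bound.

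Among macrophage markers, Cd14, the lipopolysaccharide co-receptor that fibroblasts also express, was higher by 1.08 ± 0.18. The defining macrophage gene Adgre1 was detected at day 0, at 5.04, and on none of the 5 co-culture arrays. Csf1r was detected at day 0 and on 4 of the 5 co-culture arrays, and was at -0.10 ± 0.28.

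Genes of the inflammatory cytokine and NF-kB lists rose more often than they fell. Osmr, the oncostatin M receptor, rose from 7.41 to between 9.25 and 10.05, by 2.36 ± 0.21. Il33, an alarmin of the interleukin-1 family, rose by 1.65 ± 0.17, and Il1rn, the natural antagonist of the interleukin-1 receptor, by 1.64 ± 0.18. Il11, a gp130 cytokine, fell from 10.04 to between 7.95 and 8.80, at -1.57 ± 0.25. Of 17 measured interleukin and cytokine genes 8 rose and 1 fell. Nfkbiz, an inducible nuclear partner of NF-kB, read 8.80 at day 0 and 11.26 to 11.60 in co-culture, a rise of 2.60 ± 0.19. The adhesion molecule Vcam1 rose by 2.43 ± 0.12, the mRNA-degrading nuclease Zc3h12a by 2.31 ± 0.20, and the IkB-family member Bcl3 was at least 5.30-fold higher. Of 16 measured members of the NF-kB list, 9 rose and 1 fell, with a median of 0.71. Fas, the death receptor, was undetected at 4.74 at day 0 and read 9.09 to 9.60 in co-culture, at least 23.6-fold higher.

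NF-kB binds a short kB site, approximated here by the letters GGG, any 2 bases and TTTCC on both strands of the 250-base window. This motif occurred in 1.65% of all 27025 promoters and in 3 of the 9 called chemokines with a promoter in the table, Ccl9, Cxcl1 and Cxcl2. The promoters of Cxcl1 (chr5:90891111-90891210, plus strand) and Cxcl2 (chr5:90903757-90903856, plus strand) are shown because both genes were among the leading chemokines. Each holds 2 matches, in capitals, and 1 match of Cxcl1 is on the opposite strand.
Cxcl1: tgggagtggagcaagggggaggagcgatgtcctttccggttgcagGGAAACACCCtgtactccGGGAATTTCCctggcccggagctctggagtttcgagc
Cxcl2: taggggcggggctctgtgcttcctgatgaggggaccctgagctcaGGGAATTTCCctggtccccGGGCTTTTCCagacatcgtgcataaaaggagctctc

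Signals that fibroblasts send to the epidermis also changed. Fgf10, a ligand of the FGFR2b receptor on keratinocytes, read 5.96 at day 0, 9.37 and 9.05 at day 2, 9.15 and 9.26 at day 4 and 9.27 at day 6. The rise was 3.27 ± 0.19 (adjusted p = 5.82e-09), with little spread among the 5 co-culture arrays. Vegfc, the lymphatic growth factor, rose by 1.15 ± 0.16 and Gas6, the ligand of TAM receptors, by 0.90 ± 0.26, whereas Vegfa, the vascular growth factor, fell from 10.67 to between 9.58 and 9.92, at -0.94 ± 0.14. Of 14 measured growth factors of the list, 6 rose and 2 fell. Angptl7, a secreted angiopoietin-like protein, went from 5.64 to between 9.52 and 9.98, a rise of 4.18 ± 0.31 (adjusted p = 1.04e-07).

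Binding proteins of the insulin-like growth factors rose without a clear fall in any measured member. Igfbp5 read 8.98 at day 0, 11.52 and 11.37 at day 2 and 11.69 and 11.78 at day 4, with the day 6 array higher again, at 2.75 ± 0.18. Igfbp4 read 9.19 and then 11.06 to 12.12, at 2.50 ± 0.12, and its protease Pappa was at 1.45 ± 0.31. Igfbp7 was at 1.34 ± 0.10. Of 11 measured genes of the list 7 rose and none was called lower.

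In the prostaglandin list 2 of 7 measured genes rose, the prostaglandin E synthase gene Ptges by 1.61 ± 0.26 and the prostacyclin receptor gene Ptgir by 1.32 ± 0.26. Of 9 measured genes for EGF receptor ligands and receptors, 2 rose and 2 fell, near the shares of 11% and 11.1% over all features. The feedback inhibitor Errfi1 was at 1.11 ± 0.13 and Egfr at 0.83 ± 0.18, while the ligands Btc and Hbegf were at -0.68 ± 0.23 and -0.61 ± 0.20.

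Growth-factor response genes changed unevenly. Fos, an AP-1 subunit, rose from 5.63 to 9.01 and 9.41 at day 2, 8.62 and 8.03 at day 4 and 7.47 at day 6, at 2.70 ± 0.21 (adjusted p = 1.68e-07). The zinc-finger genes Egr1, Egr2 and Klf6 rose by 1.48 ± 0.12, 1.29 ± 0.18 and 1.04 ± 0.10. Of 17 measured AP-1 and immediate early genes 6 rose and 1 fell. Among 14 genes of ERK feedback 3 rose and 3 fell. The phosphatases Dusp1 and Dusp2 were at 1.66 ± 0.14 and 1.28 ± 0.21, Etv4, an ETS factor induced by ERK, was at -0.78 ± 0.17, and Dusp14 at -0.64 ± 0.19.

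Feedback genes of STAT signalling gave 2 rises and 1 fall among 10 measured. Cish, an inhibitor of cytokine receptors, rose by 1.83 ± 0.18 and Socs3, which restrains gp130 receptors, by 1.44 ± 0.14. Bcl6, a repressor, fell by 0.84 on the log2 scale, from 10.06 at day 0 to between 8.62 and 9.89.

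Matrix genes rose as a broad group of moderate changes. Col6a2, a chain of the beaded-filament collagen VI, read 7.73 at day 0, 9.86 and 9.92 at day 2, 10.32 and 10.70 at day 4 and 10.15 at day 6, a rise of 2.46 ± 0.18 (adjusted p = 6.27e-08). Col3a1, a fibrillar collagen, rose from 6.55 to between 8.45 and 8.78, by 2.07 ± 0.16. The proteoglycan osteoglycin (Ogn) rose by 2.01 ± 0.16 and the crosslinking enzyme Loxl1 by 1.81 ± 0.15. Of 24 measured collagen and interstitial matrix genes (28 on the array), 18 rose and none fell, with a median of 1.04, or 1.03 with undetected genes at their bound.

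Basement membrane genes gave 7 rises and no fall among 12 measured. Col4a1 and Col4a2, the chains of the main collagen IV network, were at 1.57 ± 0.16 and 1.21 ± 0.19, and the proteoglycans Agrn and Hspg2 at 1.40 ± 0.14 and 0.90 ± 0.17. Receptors for platelet-derived growth factor, which mark fibroblasts, rose as well. Pdgfra was at 1.76 ± 0.13 and Pdgfrb at 1.38 ± 0.20, and of 12 measured fibroblast markers 8 rose and 1 fell, the intermediate filament gene Vim, named after its value was seen.

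Among the proteases that cut matrix, stromelysin (Mmp3) read 5.63 at day 0, 8.98 and 8.49 at day 2, 8.28 and 8.05 at day 4 and 9.18 at day 6, a rise of 3.06 ± 0.16 (adjusted p = 1.77e-09). Collagenase 3 (Mmp13) rose by 2.59 ± 0.21, gelatinase B (Mmp9) was at least 4.72-fold higher and their inhibitor Timp3 rose by 2.04 ± 0.13. In this list of 17 measured genes 8 rose and 4 fell. The fallen members were Plaur, Timp1, Plau and Plat, named after their values were seen, of which Plau, Plat and Plaur encode the plasminogen activators and a receptor.

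Of 14 measured genes of TGF-beta signalling 6 rose and none fell. Id3 was at 1.29 ± 0.15, the latent TGF-beta binding protein Ltbp2 at 0.98 ± 0.28, Ccn2 at 0.82 ± 0.13 and Tgfb1 itself at 0.76 ± 0.16. Ccn2 was not called with all 18 arrays and the processing set as a block (limma, adjusted p = 0.450) or with the 6 wildtype arrays alone and co-culture as 1 group (0.114), Id3 not with that block (0.0618) and Ltbp2 not without the filter on detection (0.0736). Over the alternatives 2 to 6 genes of the list rose. Ccn1, a target of YAP, read 6.02 at day 0 and 8.68 to 9.19 in co-culture, at 2.94 ± 0.13 (adjusted p = 2.71e-10), and Ccn5, of the Wnt and BMP list, read 5.30 and then 7.79 to 8.57, at 2.88 ± 0.16. In the YAP list 4 of 9 measured genes rose, with Amotl1 at 0.99 ± 0.12 and Axl, a TAM receptor, at 0.35 ± 0.12.

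The BMP antagonist Grem1 was at 0.97 ± 0.18, and of 8 measured Wnt and BMP genes 2 rose. Contractile genes gave no rise and 1 fall among 15 measured. That was calponin (Cnn1), which was near background at day 0 and at least 1.54-fold lower. Tropomyosin 1 (Tpm1) was at -0.20 ± 0.09 and the actin crosslinker Actn1 at 0.18 ± 0.10, neither past the threshold.

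For 9 genes near the threshold, Ivl, C4b, Col1a2, Btc, Hbegf, Dusp14, Plat, Axl and Cnn1, the call ended when 1 array was left out. Whichever of the 5 co-culture arrays it was, Axl (differences of 0.27 to 0.36, limma, adjusted p from 0.0661 to 0.119), Btc (-0.71 to -0.44, 0.0676 to 0.213), C4b (0.67 to 0.81, 0.0542 to 0.0917) and Ivl (0.62 to 0.78, 0.0527 to 0.0984) were no longer called. The call of Col1a2 ended without replicate 2 of day 2 or without any array of days 4 and 6 (adjusted p from 0.0589 to 0.0944). That of Hbegf ended without either day 2 array or without replicate 2 of day 4 (0.0522 to 0.0725), and that of Dusp14 without replicate 1 of day 2 or replicate 2 of day 4 (0.0506 to 0.0535). Cnn1 and Plat were not called without replicate 1 of day 2, of day 4 or of day 6 (0.0529 to 0.0567 and 0.0562 to 0.0617). The differences of these 5 stayed between 0.61 and 0.75 for Col1a2, -0.64 and -0.57 for Hbegf, -0.64 and -0.62 for Dusp14, -0.85 and -0.82 for Cnn1 and -0.44 and -0.40 for Plat.

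**Figure D3:**
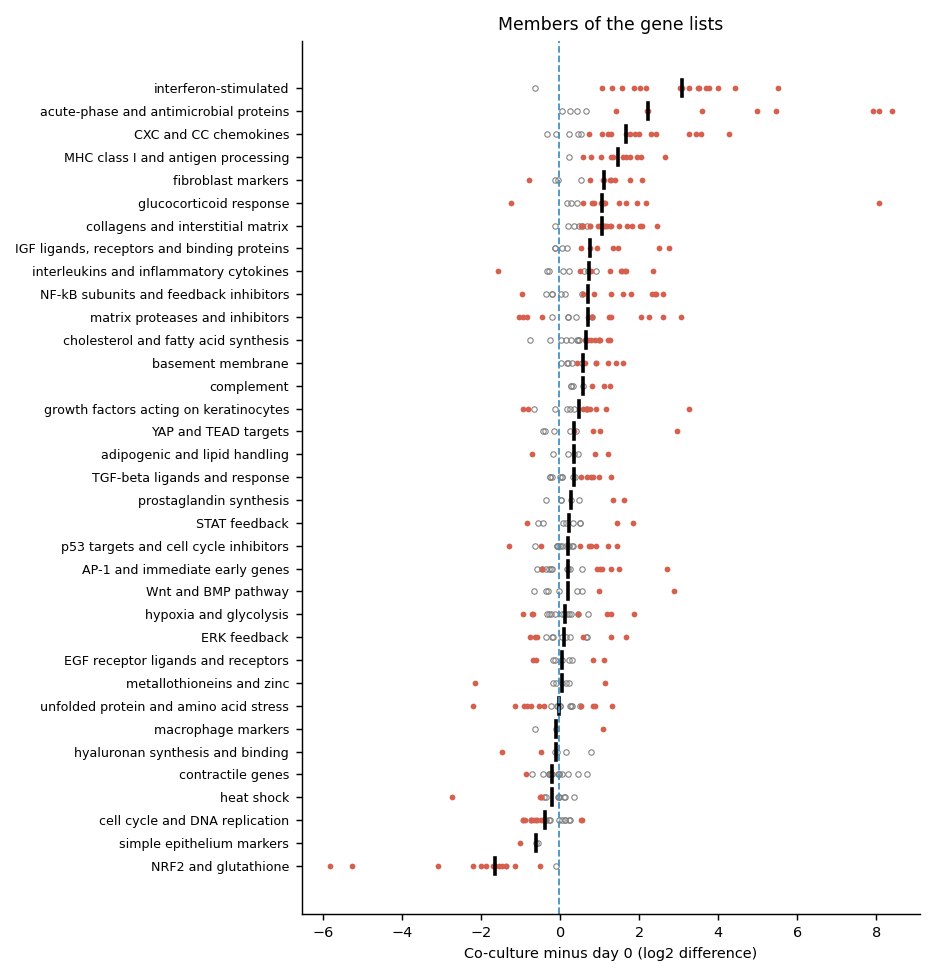
Difference between co-culture and day 0 (horizontal axis, log2) for each measured member of the gene lists with 3 or more measured members. Filled red circles have an adjusted p under 0.05, open circles do not, black bars are list medians, and the dashed line is the median of all features at -0.04. Interferon-stimulated genes have the highest median, 3.08, and NRF2 and glutathione genes the lowest, -1.65.

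The clearest fall was in genes of glutathione and detoxification that NRF2, the sensor-controlled antioxidant factor, is known to drive. Gsta1, an alpha-class glutathione S-transferase, read 11.16 at day 0, 5.41 and 5.71 at day 2, 4.89 and 5.48 at day 4 and 5.23 at day 6, with detection on 4 of the 5. The difference was -5.84 ± 0.24 (adjusted p = 9.72e-11). Gsta2 read 10.42 and then between 4.78 and 5.70 and was at least 38.9-fold lower, with detection on 3 of the 5. Gsta1 and Gsta2 are near-identical in sequence, so their probes may read each other's transcripts. Gsta4, a more distant member that conjugates lipid aldehydes, fell from 11.44 to between 8.03 and 8.64, at -3.10 ± 0.15. Slc7a11, the cystine importer that feeds glutathione synthesis, fell from 10.74 to between 8.10 and 8.86, at -2.22 ± 0.23. In each of the 4 genes the day 0 array was above every co-culture array, as in 33.8% of all features.

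Of 15 measured genes of this list (18 on the array), 14 fell, against 11.1% of all features called lower, and none rose. The median was -1.65. Gstm1 was the exception, at -0.11 ± 0.12, and is named after its value was seen. The rest, named here only as the ends of the range, ran from the cysteine ligase subunit Gclm at -2.02 ± 0.14 to the peroxidase Prdx1 at -0.52 ± 0.10.

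The antioxidant response element that NRF2 binds was approximated by the letters TGAC, any 3 bases and GCA on both strands. This motif occurred in 2.8% of all promoters and in 2 of the 11 fallen genes with a promoter in the table, Gsta3 and Txnrd1. It also occurred in 2 of the 9 called chemokines with a promoter in the table, Cxcl10 and Cxcl13. Txnrd1, thioredoxin reductase, fell from 6.53 to between 5.30 and 5.46. Its promoter (chr10:82859068-82859167, plus strand) is shown as the example in which the match, on the opposite strand and in capitals, lies before a fallen gene.
Txnrd1: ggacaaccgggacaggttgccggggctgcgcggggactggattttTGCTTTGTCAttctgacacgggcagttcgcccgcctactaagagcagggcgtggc

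Other leading falls came from several functions. Dppa5a, a gene of pluripotent cells, read 8.38 at day 0, was detected on no co-culture array and was at least 13.4-fold lower. Adh7, a retinol-oxidizing alcohol dehydrogenase, was likewise lost from 7.59 and at least 8.05-fold lower. Wwc1, the Hippo-pathway scaffold KIBRA, was at -2.94 ± 0.20. The chaperone alpha-B crystallin (Cryab) read 10.30 and then 7.29 to 7.91, at -2.73 ± 0.16 (adjusted p = 6.22e-09). Clec4d, a C-type lectin, was bright at day 0, 12.30, and lay between 9.46 and 9.90 in co-culture, at -2.61 ± 0.20.

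Keratins of simple and corneal epithelium were part of this group. Krt12 was at -2.91 ± 0.27 and Krt20 at -2.21 ± 0.27, and Krt19 of the simple epithelium list was at -1.02 ± 0.22. Calr3, a testis calreticulin, was at -2.61 ± 0.26, the integrin subunit Itgb7 at -2.60 ± 0.26 and Ramp3, a partner of the calcitonin-like receptor, at -2.48 ± 0.20. Glyat, a glycine acyltransferase, was at least 5.04-fold lower. Among the leading rises outside the lists, the organic anion exporter Abcc3 was undetected at day 0 and at least 19.2-fold higher.

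Cell-division genes fell by about 1 log2 unit or less. Aurora kinase A (Aurka) read 10.06 at day 0 and 8.93 to 9.37 in co-culture, at -0.95 ± 0.13. Plk1, another mitotic kinase, was at -0.95 ± 0.14, the anaphase activator Cdc20 at -0.89 ± 0.12 and thymidylate synthase (Tyms) at -0.76 ± 0.14. Of 24 measured members 12 fell and 2 rose, with a median of -0.39. The rises were cyclins Ccnd2 and Ccnd3, at 0.51 ± 0.13 and 0.55 ± 0.12, named after their values were seen. In the list of p53 targets and cell cycle inhibitors, 6 of 19 rose and 2 fell. Gadd45a, Sesn1 and the CDK inhibitor gene Cdkn2b were at 1.44 ± 0.15, 1.20 ± 0.15 and 0.91 ± 0.16, and Gadd45g was at -1.30 ± 0.19.

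Stress genes showed no common direction. Of 20 genes of unfolded-protein and amino acid stress 4 rose and 7 fell. The glutathione-degrading Chac1 was at -1.16 ± 0.15, the serine-synthesis enzyme Phgdh at -0.92 ± 0.17 and the lipoprotein receptor Vldlr at 1.31 ± 0.17. Besides Cryab, 3 of the 12 measured heat shock genes fell, Hspd1, Hspb8 and Hsph1, at -0.51 ± 0.12, -0.50 ± 0.10 and -0.49 ± 0.12, and none rose. In the hypoxia and glycolysis list 4 of 18 rose and 3 fell, with the kinase Pdk1 at 1.86 ± 0.18, the prolyl hydroxylase subunit P4ha1 at 1.28 ± 0.20 and Pfkl at 1.18 ± 0.13. Metallothioneins split, with Mt2 at 1.13 ± 0.21 and Mt3 at -2.15 ± 0.27.

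Of 18 measured genes of sterol and fatty acid synthesis, 10 rose and none fell, with the sterol enzymes Nsdhl at 1.25 ± 0.18, Fdps at 1.21 ± 0.09, Msmo1 at 1.01 ± 0.10 and Lss at 0.99 ± 0.13. Of 16 measured glucocorticoid-response genes, 12 rose and 1 fell. Hydrocortisone was in the medium of all groups, and the cause of these changes was not tested. Hsd11b1, which regenerates active glucocorticoid, was undetected at day 0 and at least 4.52-fold higher, and Angptl4 rose by 1.93 ± 0.23. Lcn2, Dusp1, Mt2, Errfi1 and Nfkbia of this list also stand in other lists here. In the adipogenic list Lpl was at 1.20 ± 0.19, Dlk1 at 0.87 ± 0.13 and the lipase gene Pnpla2 at -0.72 ± 0.16. With all 18 arrays and the processing set as a block, Lpl (limma, adjusted p = 0.0806) and Dlk1 (0.789) were not called and no gene of this list rose. Hyaluronan genes gave 2 falls among 6, the synthase Has1 at -1.48 ± 0.29 and the receptor Cd44 at -0.50 ± 0.14.

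With all 18 arrays and the processing set as a block, 29 of the 151 genes named for the response were not called, with adjusted p (limma) from 0.0531 for Cd14 to 0.789 for Dlk1. Beside those given above, the inflammatory, growth factor and matrix genes among them were C1s1, Ccl9, Ptges, Egfr, Etv4, Dcn, Grem1, Hspg2, Plau and Plaur. The others were Cdkn2b, Ccnd2, Chac1, Hspd1, Hsph1, Krt19 and Cd44. All 29 kept their direction.

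How far the response varied between the intervals was asked by setting the mean of days 4 and 6 against day 2, a comparison that uses no day 0 array. Of 13599 features 32 were called, or 0.235%, with 22 higher (0.162%) and 10 lower (0.0735%), and 1057 had an unadjusted p under 0.05. Without replicate 2 of day 2 the count was 6, and without each of the other 4 arrays in turn it was 14 to 24. With arrays scaled to a common median in place of quantile normalization, 52 were called, 32.69% of them higher against 68.75% here, and the median of all features moved from -0.01 to -0.13. Cygb, the haem protein cytoglobin, read 5.67 and 5.89 at day 2, 7.35 and 7.65 at day 4 and 7.42 at day 6, a difference of 1.68 ± 0.15 (adjusted p = 3.31e-05). Igf2, the fetal growth factor, was undetected at day 2 at 4.26 and 4.60, then read 5.31 and 5.69, then 6.93, and was at least 3.05-fold higher (adjusted p = 0.000359). Sprr2e, a small proline-rich protein of the cornified envelope, read 5.10 and 4.64, then 6.23 and 6.09, then 7.18, at 1.80 ± 0.25. For these 3 genes, and for Ace and Adipoq below, every later array lay above both day 2 arrays. They were picked as the largest later rises, and the share of all features with that order was not counted. Sprr2e was detected on 1 of the day 2 arrays, so its log2 difference may understate the change. The peptidase gene Ace was at 1.47 ± 0.27, and adiponectin (Adipoq), undetected at day 2, was at least 2.25-fold higher, with 6.50 and 6.35 at day 4 but 5.12 at day 6. The call of Igf2 ended without the day 6 array (limma, 1.07, adjusted p = 0.0771), that of Sprr2e without that array or without replicate 2 of day 2 (adjusted p = 0.121 and 0.181), that of Adipoq without any array of days 2 and 4 (0.0605 to 0.334), and that of Ace without any array (0.0840 to 0.676).

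Among the 10 features that were lower at the later intervals, 4 stand in the lists of feedback and immediate early genes, Socs2, Cish, Fos and Dusp1. By list, 2 of 10 measured STAT feedback, 1 of 17 immediate early and 1 of 14 ERK feedback genes were called lower, against 0.0735% of all features. Bcl6 of the STAT feedback list went the other way and was higher at the later intervals, at 0.87 ± 0.12 (limma, adjusted p = 0.0035). Socs2, an inhibitor of growth hormone and STAT5 signalling, read 9.04 and 9.29 at day 2, 7.72 and 7.58 at day 4 and 7.13 at day 6, against 7.49 before co-culture. The difference was -1.77 ± 0.16 (adjusted p = 4.96e-05). Cish, a related inhibitor, read 8.99 and 8.96, then 8.14 and 7.91, then 7.29, at -1.32 ± 0.15, and Fos was at -1.31 ± 0.18. Dusp1 was at -0.79 ± 0.12, and Tnfrsf11b, the decoy receptor osteoprotegerin, at -0.79 ± 0.15. The direction of Cish, Fos and Dusp1 between intervals was thus opposite to that of their rise over day 0. Without replicate 2 of day 2 none of Cish (limma, adjusted p = 0.0581), Fos (0.224) and Dusp1 (0.294) was called, nor were Fos and Dusp1 without the day 6 array (0.135 and 0.190). Tnfrsf11b was not called once any 1 array was left out (0.153 to 0.440). With the processing set as a block over 18 arrays Cygb (1.69, limma, adjusted p = 0.253) and Socs2 (-1.42, 0.225) were not called either.

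**Figure D4:**
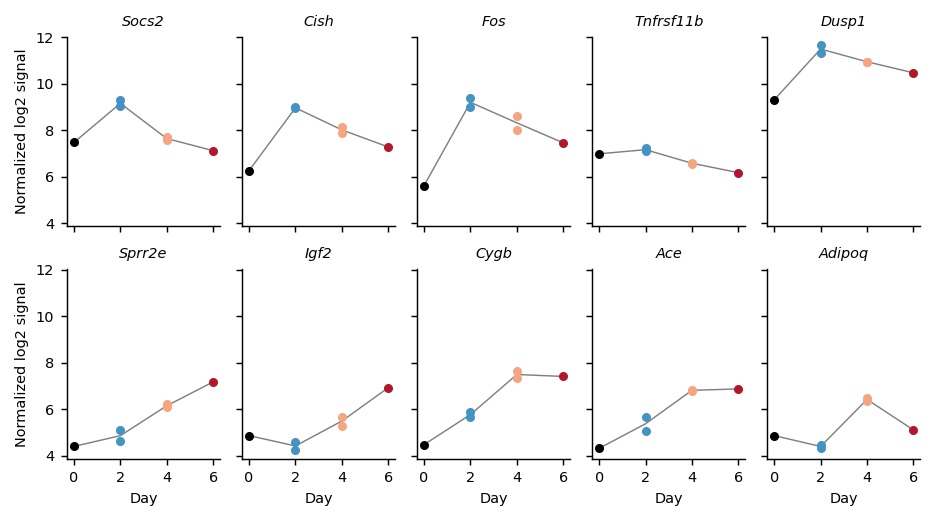
Normalized log2 signal (vertical axis) by day (horizontal axis) of the 5 genes lowest (upper row) and highest (lower row) at days 4 and 6 against day 2. Each point is 1 array and lines join the day means, with 1 array at days 0 and 6 and 2 at days 2 and 4. Socs2 falls from above 9 at day 2 to 7.13 at day 6, and Igf2 climbs from under 5 to 6.93.

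The most alike samples are the KO fibroblasts in the same set, with 1 array at day 0 and 5 in co-culture. Their own response called 3849 features (28.3%). The difference between the 2 responses, wildtype minus KO, was called for 1349 features (9.92%), with 605 higher (4.45%) and 744 lower (5.47%). Without replicate 1 or 2 of KO day 4 the count was 2124 and 2072. With median scaling it was 1073, of which 65.14% were higher against 44.85% here, as the median of all features moved from -0.05 to 0.07. It rests on 1 day 0 array per genotype and on 1 line per genotype, so the deletion and the line cannot be told apart. The difference and the wildtype response share all 6 wildtype arrays, so calls in both are not independent of each other.

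Usp18 showed the largest positive difference, 5.18 ± 0.37 (adjusted p = 7.46e-07). In KO it lay at 4.43 at day 0 and between 4.40 and 5.37 in co-culture, with a response of 0.32. With all 18 arrays and the processing set as a block the difference of Usp18 was 4.67 (limma, adjusted p = 0.0697). Oas1g, which makes the second messenger oligoadenylate, went from 4.19 to between 6.96 and 7.95 in wildtype, while KO arrays were at 5.17 and then 4.22 to 4.82. Its measured difference was 3.76 ± 0.38, and that of Cxcl13 was 3.63 ± 0.32. Oas1g was not detected on the wildtype day 0 array and was detected on 1 KO co-culture array, and Cxcl13 was detected at day 0 in neither line, so these sizes rest on signals at the background and are not exact. Angptl7 lay between 4.28 and 5.44 on all KO arrays and differed by 4.01 ± 0.44. In KO, Angptl7 was undetected at day 0 and detected on 1 co-culture array, and Usp18 was undetected at day 0 and detected on 2. The sizes of Angptl7 and Usp18 are thus not exact either. For these 4 genes the co-culture arrays of wildtype were all above those of KO. They were picked by the size of this difference, and the share of all features with that order was not counted.

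For other genes the KO line was already high before co-culture. S100a8, a calcium-binding antimicrobial subunit, rose in wildtype from 5.50 to between 8.37 and 9.47, while KO arrays read 10.64 at day 0 and 9.84 to 10.42 later. The difference was 4.12 ± 0.40 (adjusted p = 1.35e-05). Cp read 8.96 in KO at day 0 against 5.10 in wildtype, and between 10.60 and 10.88 in KO co-culture, with a difference of 3.70 ± 0.28. Fas behaved alike, at 8.84 against 4.74 at day 0, and differed by 2.71 ± 0.24. In S100a8 and Fas the co-culture values of wildtype were below those of KO, so the larger wildtype response came with a lower start and not with a higher end level.

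Among the negative differences Cryab was the largest in size, at -4.58 ± 0.23 (adjusted p = 1.54e-08). It fell in wildtype and rose in KO, from 7.05 to between 8.53 and 9.38. Gsta1 and Gsta2 fell in both lines, but KO kept 8.50 to 9.26 and 7.59 to 8.39 in co-culture, and the differences were -4.27 ± 0.34 and -3.47 ± 0.36. Tgm2, transglutaminase 2, was at -0.36 ± 0.24 in wildtype and rose by 3.01 in KO, a difference of -3.37 ± 0.34. Adh7 and Calr3 differed by -3.36 ± 0.39 and -3.23 ± 0.37. Adh7 lay between 4.09 and 4.14 on all KO arrays, where there was no signal to lose.

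List counts of this difference are to be read against 4.45% higher and 5.47% lower over all features. Of the interferon-stimulated list, 14 of 17 measured genes had a difference called higher and none lower, and of the acute-phase list 9 of 13. With all 18 arrays the interferon-stimulated genes Ifi27l2a, Irgm2, Igtp, Parp14 and Oasl2 kept differences of 2.43 to 3.57 with adjusted p (limma) from 0.0873 to 0.281. For NRF2 and glutathione genes 9 of 15 were called lower and none higher. Sterol genes gave 8 of 18 called lower, and 16 of them rose in KO. The collagen list gave 3 higher and 2 lower among 24, with 18 members risen in each genotype. Cxcl1 was at 10.55 in wildtype and 12.02 in KO at day 0, and Nfkbiz differed by -0.07 between responses.

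**Figure D5:**
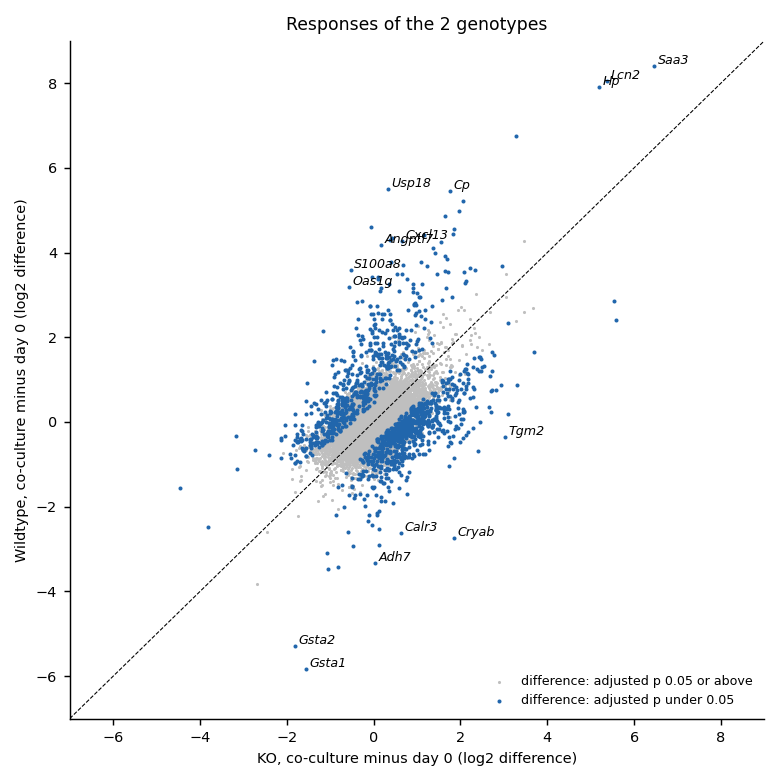
Response to co-culture in wildtype (vertical axis, log2 difference) against that in KO (horizontal axis, log2 difference) for 13599 features. Blue points differ between responses with an adjusted p under 0.05, the dashed line marks equal responses, and named genes are labelled. Usp18, S100a8 and Angptl7 lie near 0 in KO and above 3 in wildtype, and Cryab lies below 0 in wildtype and above 0 in KO.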

How the data were processed

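RNA of mouse fibroblasts was hybridised to single-colour Illumina bead arrays. The deposited table, per the file headers, holds for each of 45121 probes and 18 arrays a mean bead intensity that was not normalized and a detection p-value. The authors' second deposited table holds log2 values, which lay within 0.00500 of the log2 of quantile-normalized intensities. How the detection p-values and intensities were made is not given in the sources used here. The lowest-intensity probes had detection p-values near 1 on 12 arrays and near 0 on 6, the day 6 replicates 2 to 4 of both genotypes, and this marks the processing sets named in the report.

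Intensities of the 12 arrays of the first set were background-corrected with normexp from the detection p-values, quantile-normalized and log2-transformed after adding 16. The work was done in R 4.3.3 with limma 3.58.1. Probes detected (p under 0.01) on the wildtype day 0 array or on at least 2 of the 5 wildtype co-culture arrays were kept, 19584 in all. Of the 45121 probes, 34763 had 1 gene symbol in the platform annotation, 18 had several and 10340 had none. For 4051 genes with several probes the brightest over the 6 wildtype arrays was used, which left 13599 features, 10562 with a symbol. Of 64 named genes with other probes past the filter, none had a called probe of the opposite sign, while 6 (Slc7a11, Klf6, Mmp13, Timp3, Axl and Cd44) had a probe of opposite sign that was not called. Other probes could be much smaller in size, as for Gbp2 (0.32 against 3.77) and Adh7 (-0.25 against -3.34). A model with 1 mean for each of the 8 combinations of genotype and day was fitted to the 12 arrays (residual degrees of freedom 4), with empirical Bayes moderation, an intensity trend and Benjamini-Hochberg adjustment at 0.05. The p-values measure the spread between inserts of 1 line, which may be technical. Tested on simulated data for co-culture against day 0 with 13599 features, the fit recovered 68% of 100 changes of 1 log2 unit and 100% of 100 changes of 2. It also called 13 features that had not been changed.

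A lower bound sets the brighter group's mean against, per array of the dimmer group, the higher of the lowest detected signal and the probe's own. The number of arrays limits the precision. Named genes are the 15 largest rises and 15 largest falls past the threshold with all 5 co-culture arrays on one side of day 0 and detection at day 0 or on all 5, up to 4 genes per list, the JNK genes, 5 genes per direction for days 4 and 6 against day 2 and 6 per direction for the difference from KO. The members and gene lists were chosen with earlier results of these data known. Replicate numbers were not used to pair the samples in the main fit, and the alternatives tried are given in the closing section. Promoter sequences are those of RefSeq, in a table of 27025 genes.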

Additional observations from a re-analysis of the deposited data

Results flagged for a closer look

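The response to co-culture differed between wildtype and KO, by limma's test of the difference itself, for 29 of the genes among the 30 leading changes and the 12 named for this difference, with adjusted p from 1.54e-08 (Cryab) to 0.00574 (Ramp3). Each value is the wildtype response minus the KO response on the log2 scale, and each rests on 1 day 0 array per genotype. Of all 152 genes that the naming rule chose, 89 had a called difference (adjusted p up to 0.0474). Over all features the share with a called difference was 9.92%. The 12 count among the 29 and the 89 by their choice, which required a called difference. The leading changes were ranked on wildtype arrays that also enter the difference, so neither count is independent of the choice. In 15 of the 29 at least 1 of the 4 groups was detected on no array, so that the size is a measured difference and not exact.

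Among interferon-stimulated genes the difference was 5.18 for Usp18, 3.76 for Oas1g, 3.25 for Igtp, 3.21 for Irgm2, 3.16 for Ifi27l2a, 2.74 for Parp14 and 2.56 for Oasl2. The KO responses of these 7 lay between -0.56 and 2.05. Among acute-phase and antimicrobial genes it was 4.12 for S100a8, 3.70 for Cp, 3.01 for Camp, 2.73 for Hp, 2.67 for Lcn2 and 1.94 for Saa3. Saa3, Hp and Lcn2 also rose in KO, by 6.46, 5.19 and 5.39. Angptl7 differed by 4.01, Cxcl13 by 3.63 and Fas by 2.71.

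Negative differences were -4.58 for Cryab, -4.27 for Gsta1, -3.47 for Gsta2, -3.37 for Tgm2, -3.36 for Adh7, -3.23 for Calr3 and -3.04 for Krt12. Smaller ones were -2.46 for Wwc1, -2.21 for Glyat, -2.10 for Krt20, -2.03 for Gsta4 and -2.01 for Clec4d. On the KO arrays Krt12 (4.15 to 4.39), Glyat (4.16 to 4.51) and Adh7 were detected nowhere, and Krt20 (4.16 to 5.22) on 1 co-culture array. Clec4d was detected at KO day 0 (4.88) and undetected in KO co-culture (4.22 to 4.33). Ramp3 fell in both lines, by 2.48 in wildtype and 3.81 in KO, which gave 1.33. With all 18 arrays and the processing set as a block the difference of Ramp3 was 0.84 and no longer past the threshold. The same held there for Saa3 (1.86), Krt20 (-2.17) and Clec4d (-1.80), beside the interferon-stimulated genes given above.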

How the results depend on the processing

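Under the alternatives run, no named gene changed its direction. With median scaling the set of called features changed, and with it the share that was higher. Between the intervals that share went from 68.75% to 32.69%, with 25 of the 52 calls also called in the main fit. In the difference from KO it went from 44.85% to 65.14%, with 961 of the 1073 calls also called in the main fit. Co-culture against day 0 gave 3000 calls, and 1898 with all 18 arrays and the processing set as a block. Its other alternatives gave 2252 (no intensity trend) to 3501 (the 6 wildtype arrays alone), with 2558 to 2923 when 1 array was left out. Days 4 and 6 against day 2 gave 32 calls, and 70 with the authors' deposited log2 values, 52 with median scaling, 10 with no filter on detection, 2 with the processing set as a block, 94 with the 6 wildtype arrays alone, 7 with no intensity trend, 20 with the replicate number as a block and 6 to 24 with 1 array left out. The difference from KO gave 1349 calls, and 281 with the processing set as a block, 675 with no intensity trend and 1022 to 2124 with 1 array left out. The cause of these changes was not tested.

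Deviations of same-numbered wildtype arrays correlated at 0.008 between days 2 and 4. Over all pairs of groups with 2 arrays the correlation ran from -0.21 (wildtype day 4 with KO day 4) to 0.06. At days 2 and 4 replicate 1 held 2 pooled inserts and replicate 2 held 1, so the number also marks pooling. With the replicate block the response count was 2530 and that of the difference 1067. Of the named genes, 118 of 151 in the response, 0 of 10 between intervals and 19 of 29 in the difference from KO kept direction and side of the threshold under every alternative. The processing-set block ended 48 calls, leaving out the filter 16 and the trend 15. The difference of Saa3 had an adjusted p of 0.0758 without the trend. Of the list counts, antigen presentation gave 6 to 11 rises, cell division 4 to 13 falls and TGF-beta 2 to 6 rises, against 15 to 16 for interferon-stimulated and 13 to 14 for NRF2 genes. The single day 0 array of each line limits every difference from day 0, and a change from or to an undetected signal is known only as a bound.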

Other observations

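Some of the largest rises belonged to probes without a gene symbol in the tables used here, named after their values were seen. Probe ILMN_2759484 read 5.59 at day 0 and 11.68 to 12.87 in co-culture, a rise of 6.75 ± 0.20. Probe ILMN_2906728 was undetected at day 0 and read 8.05 and 8.21 at day 2, 10.08 and 10.40 at day 4 and 10.49 at day 6. It was at least 24.2-fold higher in co-culture, and its mean over days 4 and 6 was above that of day 2 by 2.24 ± 0.19.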
